A study of Mus musculus with 4 samples.

Results

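Serum amyloid A and 2 further acute-phase genes were examined in sorted mouse periosteal cells. The genes were *Saa1*, *Saa2*, *Saa3*, *Lcn2* and *Hp*, found by gene symbol among the 45802 symbols of the deposited table, and all 5 were listed. They had been picked with their values in PDGFRα reporter+ against PDGFRα reporter- cells known, so that their differences between these populations are given as a description without a test. Expression was measured by total RNA sequencing of 4 libraries, 2 of each population, given as 1 log2 value per gene and library. Both populations came from male PDGFRα-mTmG mice, in which tamoxifen (150 mg/kg per day for 5 days at 2 months of age) switches cells with an active *Pdgfra* promoter from tdTomato to GFP. Hindlimb periosteum was taken 14 days later. The mice are given as 9 to 10 weeks old, which was not reconciled with 2 months of age at tamoxifen and the 14 days after it. Each cell population pooled 3 to 6 mice per the sample labels, whereas the study's methods state larger pools for this isolation. Cells were expanded for 1 passage with 10 ng/mL bFGF and sorted as negative for CD31, CD45 and Ter119, the GFP+ cells being PDGFRα reporter+ and the tdTomato+ cells PDGFRα reporter-. All animals thus carried the same alleles and received the same tamoxifen, and the sort separated them by whether the reporter had been switched. The reporter marks activity of the promoter at the time of tamoxifen and not at the time of sorting.

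Acute-phase proteins are secreted in large amounts during infection and injury, mainly by the liver, and in part by fibroblasts, macrophages and fat cells. Serum amyloid A proteins travel with high-density lipoprotein and signal to leukocytes, and *Saa3* is the form made mainly outside the liver in mice. Lipocalin 2 (*Lcn2*) withholds iron from bacteria by binding their siderophores, and haptoglobin (*Hp*) binds free hemoglobin. Their genes are induced by interleukin 1, interleukin 6 and tumor necrosis factor through NF-κB, STAT3 and C/EBP transcription factors.

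The 4 libraries listed values for 15423 to 15605 genes, and 14415 genes had a value in all 4. The values had been quantile normalized, whereas the unit under the logarithm and the sequencing depth are not given in the sources used here. No counting error could thus be stated, and levels of the 5 genes were not compared with one another, except where shared reads are described. Summed levels of marker lists, given below, assume that linear values are comparable between genes. The table headings give the population and a number, 2 or 3, which the sample labels do not explain. Across genes, the correlation was 0.984 and 0.982 between populations with the same number, compared with 0.952 and 0.957 between libraries of the same population. Differences are therefore also given within each number. All 8 genes of a periosteal stroma list were listed in every library, and 7 of them had a lower mean in PDGFRα reporter+ cells, 6 within both numbers, with a median log2 difference of −0.15 and the lowest for *Postn* (−1.14, SE 1.45). The *Pdgfra* transcript had log2 values of 7.78 and 7.62 in PDGFRα reporter+ and 7.87 and 7.44 in PDGFRα reporter- cells, so that the groups overlapped. Of 5 endothelial genes, 4 were lower in PDGFRα reporter+ cells within both numbers, with a median log2 difference of −1.82, and 3 had an unadjusted p under 0.05 (limma, adjusted p 1), beside 0.909% of all genes. *Pecam1*, which encodes the CD31 used in the sort, had log2 values of −4.68 and −4.79 in PDGFRα reporter+ cells, compared with −1.99 and −1.11. The part of endothelial RNA in the differences between populations was not tested.

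*Saa3* was higher in both PDGFRα reporter+ libraries than in both PDGFRα reporter- libraries. Its log2 values were 6.72 (number 2) and 8.89 (number 3) in PDGFRα reporter+ cells, compared with 4.75 and 5.47 in PDGFRα reporter- cells. The means were 7.80 ± 1.53 (SD, n = 2) and 5.11 ± 0.51 (SD, n = 2), a log2 difference of 2.70, or 6.48-fold. Within the numbers the log2 difference was 1.97 (3.93-fold) for number 2 and 3.42 (10.7-fold) for number 3, so that it was larger in the libraries numbered 3.

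*Saa1* and *Saa2*, the acute-phase forms that the liver releases into plasma, had log2 values near or below 0 but were listed in all libraries. *Saa1* had log2 values of −1.55 and 0.72 in PDGFRα reporter+ cells, compared with −3.23 and −2.04 in PDGFRα reporter- cells (means −0.41 ± 1.61 and −2.64 ± 0.84, SD, n = 2 each). The groups did not overlap, and the log2 difference was 2.23 (4.68-fold), with 1.69 within number 2 and 2.77 within number 3. *Saa2* had log2 values of −0.21 and 0.91 in PDGFRα reporter+ cells, compared with −5.19 and −2.37 in PDGFRα reporter- cells (means 0.35 ± 0.79 and −3.78 ± 1.99, SD, n = 2 each). Its log2 difference of 4.13 (17.5-fold) was the largest of the 5 genes on the deposited scale, with 4.98 within number 2 and 3.28 within number 3. These low values depend on the scale, since a pseudocount of 1 on the linear scale lowered the log2 difference to 0.69 for *Saa1* and 1.07 for *Saa2*, below *Saa3* (2.66) and *Lcn2* (1.31).

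*Lcn2* was higher in PDGFRα reporter+ cells within each number, although its groups overlapped. The log2 values were 5.72 and 7.22 in PDGFRα reporter+ cells and 4.13 and 6.11 in PDGFRα reporter- cells, so that the PDGFRα reporter- library numbered 3 lay above the PDGFRα reporter+ library numbered 2. The means were 6.47 ± 1.06 and 5.12 ± 1.40 (SD, n = 2 each), a log2 difference of 1.35 (2.54-fold). It was 1.59 within number 2 and 1.11 within number 3.

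*Hp* did not separate the populations. Its log2 values were 6.28 and 7.56 in PDGFRα reporter+ cells, compared with 5.63 and 7.75 in PDGFRα reporter- cells (means 6.92 ± 0.90 and 6.69 ± 1.50, SD, n = 2 each). The log2 difference of 0.23 (1.17-fold) was smaller than either SD. It was 0.66 within number 2 and −0.20 within number 3, and thus opposite in sign.

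**Figure D1:**
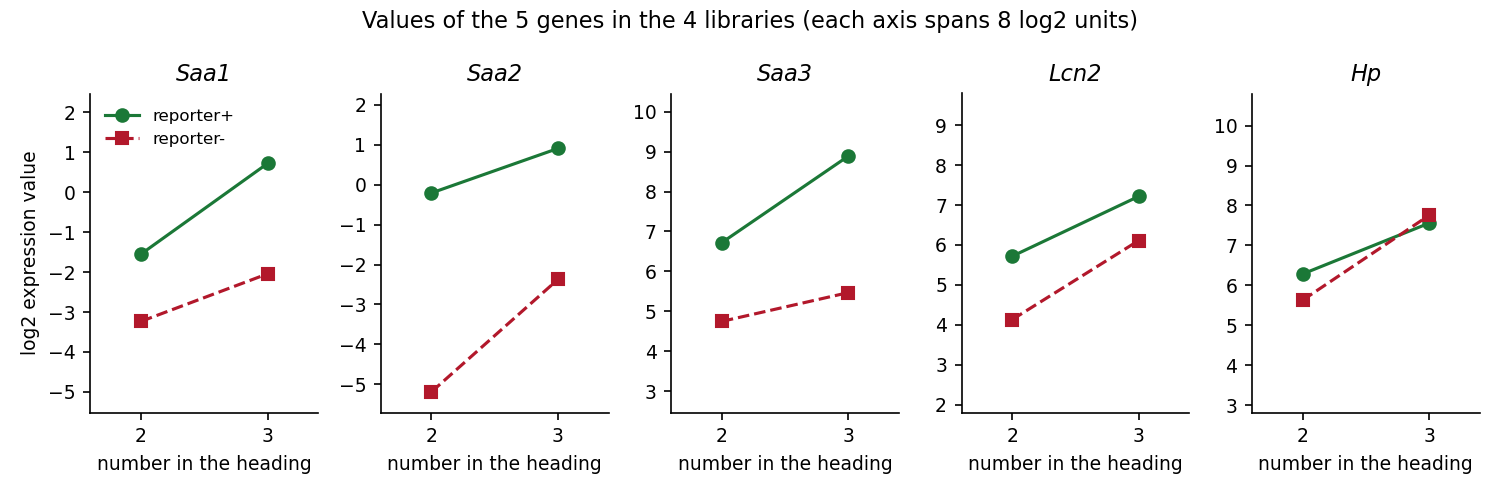
Deposited log2 value (y axis) of each gene by the number in the table heading (x axis), with circles and solid lines for PDGFRα reporter+ and squares and dashed lines for PDGFRα reporter- libraries; lines join libraries of 1 population. The 3 serum amyloid A genes keep the populations apart, the lines of *Hp* cross, and every line rises from number 2 to number 3.

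Of the 5 genes, 3 had both PDGFRα reporter+ libraries above both PDGFRα reporter- libraries, which held for 7.59% of the 14415 genes. A higher value in PDGFRα reporter+ cells within both numbers was found for 4 of the 5, and for 22.1% of all genes. As the genes were chosen by this contrast, nothing is read from these counts. For *Saa1*, *Saa2* and *Saa3* the difference between populations was larger than that between numbers, whereas for *Lcn2* and *Hp* it was smaller.

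**Figure D2:**
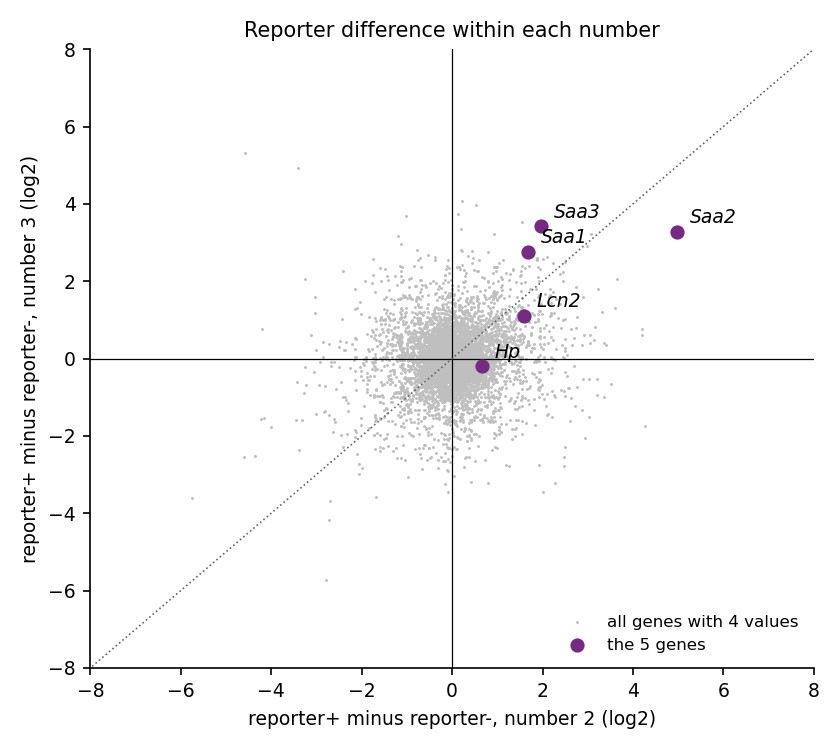
Log2 difference of PDGFRα reporter+ minus PDGFRα reporter- cells within the libraries numbered 2 (x axis) and 3 (y axis), for the 14415 genes with 4 values (gray) and the 5 genes (purple); the dotted line marks equal differences. *Saa2* lies farthest to the right (4.98), *Saa3* and *Saa1* lie above the dotted line, and *Hp* lies just below 0 on the y axis.

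The serum amyloid A genes are neighbors, and the genes that flank their cluster differed far less between populations. On GRCm38.p6, the build named in the submitters' processing notes, RefSeq places the protein-coding genes *Saa3* at chr7:46711998-46719615, *Saa1* at chr7:46740497-46743181 and *Saa2* at chr7:46751833-46754313. *Lcn2* lies at chr2:32384637-32387739 and *Hp* at chr8:109575128-109579172. Between *Saa3* and *Saa1* lies *Saa4*, a family member that is expressed constitutively in the liver. *Saa4* had log2 values of −3.14 and −0.99 in PDGFRα reporter+ cells and −4.83 and −3.38 in PDGFRα reporter- cells. Its log2 difference was 2.05 (SE 1.00), with 1.70 within number 2 and 2.40 within number 3, and the adjusted p was 1 (limma). The log2 difference was 0.28 with a pseudocount of 1, since these values are low, and ranged from 0.97 to 3.12 with 1 library left out. The log2 difference was 0.13 for *Saal1* beside *Saa3* and 0.22 for *Hps5* beside *Saa2*. Beyond them, *Sergef*, *Gtf2h1* and *Ldha* within 100000 bases of the cluster had log2 differences of −0.01, 0.09 and 0.14.

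**Figure D3:**
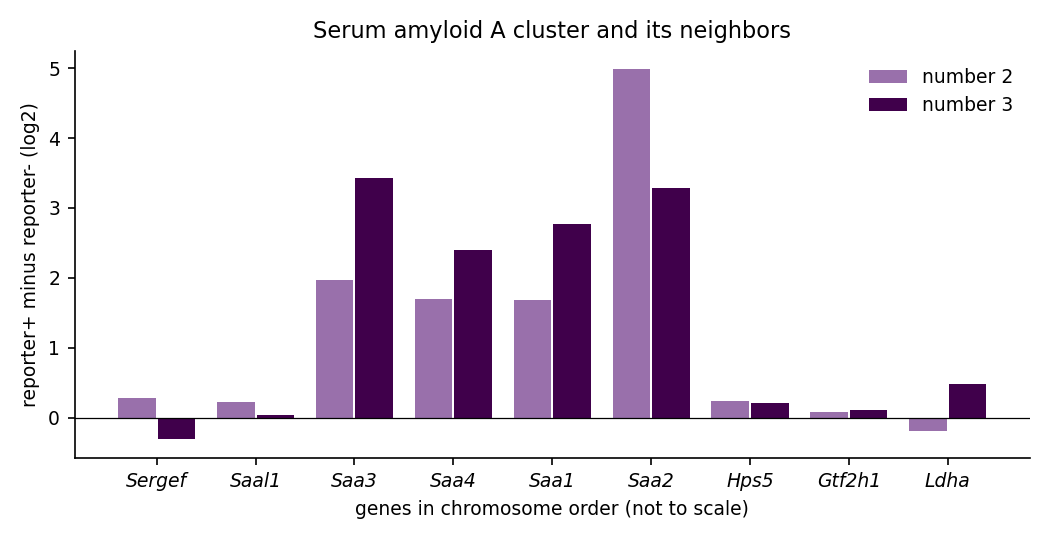
Log2 difference of PDGFRα reporter+ minus PDGFRα reporter- cells (y axis) for the genes with 4 values in and within 100000 bases of the serum amyloid A cluster, in chromosome order (x axis), with light bars for number 2 and dark bars for number 3. The bars of *Saa3*, *Saa4*, *Saa1* and *Saa2* are 1.69 or higher, and those of the neighbors are 0.47 or lower.

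Near-identical genes can share reads, so that the transcripts were compared. In GENCODE M21 protein-coding transcripts, 74 of the 560 distinct stretches of 50 bases in *Saa1* (13.2%) also occurred in *Saa2*, and 9 (1.61%) in *Saa3*. *Saa2* and *Saa3* shared 0 such stretches, and *Saa4* shared 0 with each of them. Of the 2556 stretches in *Saa3*, these 9 were 0.352%. How the authors assigned reads that match several genes is not given in the sources used here. The values of *Saa1* and *Saa2* are thus uncertain, and the shares of stretches do not bound by how much. *Saa3* had log2 values of 4.75 to 8.89, compared with −3.23 to 0.72 for *Saa1*. If linear values are comparable between genes, a small share of *Saa3* reads could weigh heavily in *Saa1*. The part of shared reads in these values was not tested.

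The promoters are shown because the 3 serum amyloid A genes and *Lcn2* were higher together in PDGFRα reporter+ cells within both numbers. RefSeq promoter sequences were found for 4 of the 5 genes and not matched for *Hp*. Each line gives the 250 bases before the listed start site on GRCm38.p6, 5′ to 3′ on the strand of the gene, at chr7:46742981-46743230 (minus strand) for *Saa1*, chr7:46751583-46751832 (plus strand) for *Saa2*, chr7:46715677-46715926 (minus strand) for *Saa3* and chr2:32387740-32387989 (minus strand) for *Lcn2*. The listed start of *Saa3* lies inside the gene interval given above, as does that of *Saa1* near its end, so that the *Saa3* window lies within that interval and the *Saa1* window overlaps it. Capitals mark matches, on either strand, to the C/EBP letters TTGCNNAA and to the NF-κB pattern of GGG and CC with 5 bases of any kind between them.
*Saa1*: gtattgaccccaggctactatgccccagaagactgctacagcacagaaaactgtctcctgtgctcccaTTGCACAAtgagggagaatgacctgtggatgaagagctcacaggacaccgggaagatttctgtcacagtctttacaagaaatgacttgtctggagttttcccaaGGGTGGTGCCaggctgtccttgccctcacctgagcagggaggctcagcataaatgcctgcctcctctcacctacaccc
*Saa2*: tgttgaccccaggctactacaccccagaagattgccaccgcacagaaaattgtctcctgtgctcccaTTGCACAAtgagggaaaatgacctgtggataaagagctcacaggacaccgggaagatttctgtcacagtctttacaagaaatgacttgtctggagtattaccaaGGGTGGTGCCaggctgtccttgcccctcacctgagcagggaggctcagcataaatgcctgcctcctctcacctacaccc
*Saa3*: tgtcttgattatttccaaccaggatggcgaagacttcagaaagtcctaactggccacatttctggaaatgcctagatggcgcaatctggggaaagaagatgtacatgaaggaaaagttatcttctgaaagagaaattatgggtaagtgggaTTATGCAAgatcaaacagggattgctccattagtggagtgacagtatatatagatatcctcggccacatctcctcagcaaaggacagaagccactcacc
*Lcn2*: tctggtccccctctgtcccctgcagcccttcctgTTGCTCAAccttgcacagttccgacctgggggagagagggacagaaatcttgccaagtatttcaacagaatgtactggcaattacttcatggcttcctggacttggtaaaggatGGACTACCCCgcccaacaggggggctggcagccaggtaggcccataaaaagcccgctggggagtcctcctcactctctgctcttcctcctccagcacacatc

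The *Saa1* and *Saa2* promoters were nearly the same, with 238 identical bases in 251 aligned columns (94.8%), whereas *Saa1* and *Saa3* had 48.5% identity. The C/EBP letters occurred in all 4 promoters and in 9.56% of the 32851 RefSeq promoter windows of this length. In *Saa1* the match lies 182 to 175 bases before the start, in *Saa2* 183 to 176, in *Saa3* 99 to 92 and in *Lcn2* 216 to 209. The NF-κB pattern occurred in 3 of the 4, all but *Saa3*, and in 45.8% of all windows. The STAT letters TTCNNNGAA occurred in 0 of the 4 and in 7.02% of all windows. The matches of different motifs did not overlap. They are matches of letters, and binding was not measured.

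All 5 genes were higher in the libraries numbered 3 than in those numbered 2, within each population. The genes were chosen by the difference between populations, with all 4 values known, and the difference between numbers is a separate contrast. It was tested with limma, with population as a second term, over the 14415 genes. *Lcn2* had a log2 difference of 1.74 (SE 0.14, adjusted p 9.06e-05), with 1.50 within PDGFRα reporter+ and 1.98 within PDGFRα reporter- cells. *Hp* had a log2 difference of 1.70 (SE 0.19, adjusted p 0.000497), with 1.27 and 2.13. The differences of *Lcn2* and *Hp* thus amounted to 3.34-fold and 3.25-fold. *Saa3* had a log2 difference of 1.44 (SE 0.27, adjusted p 0.00635), with 2.17 for the PDGFRα reporter+ pair of libraries and 0.72 for the PDGFRα reporter- pair. *Saa1* (1.73, SE 0.38, adjusted p 0.0128) had 2.27 and 1.19, and *Saa2* (1.97, SE 0.45, adjusted p 0.0154) had 1.12 and 2.82 in the same order. All 5 thus passed the threshold of 0.05 as higher, compared with 11.5% of all genes higher and 9.79% lower, or 21.3% in either direction. As the genes were picked with these values known, the count and the p-values are not independent evidence. Being higher within both populations, as they were, held for 41.1% of all genes. The model has 1 residual degree of freedom per gene, and the calls rest on the trend of the variance with the level. Without the trend, 0 of the 14415 genes were called, beside 3909 (27.1%) and all 5 of these genes with an unadjusted p under 0.05, and the adjusted p of the 5 genes ranged from 0.0631 (*Lcn2*) to 0.172 (*Saa3*). With a pseudocount of 1, *Saa1*, *Saa2* and *Saa3* no longer passed (adjusted p 0.132, 0.0820 and 0.0694), and without the population term only *Hp* did. What the number stands for cannot be told apart from any culture, sort or sequencing difference between these libraries.

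**Figure D4:**
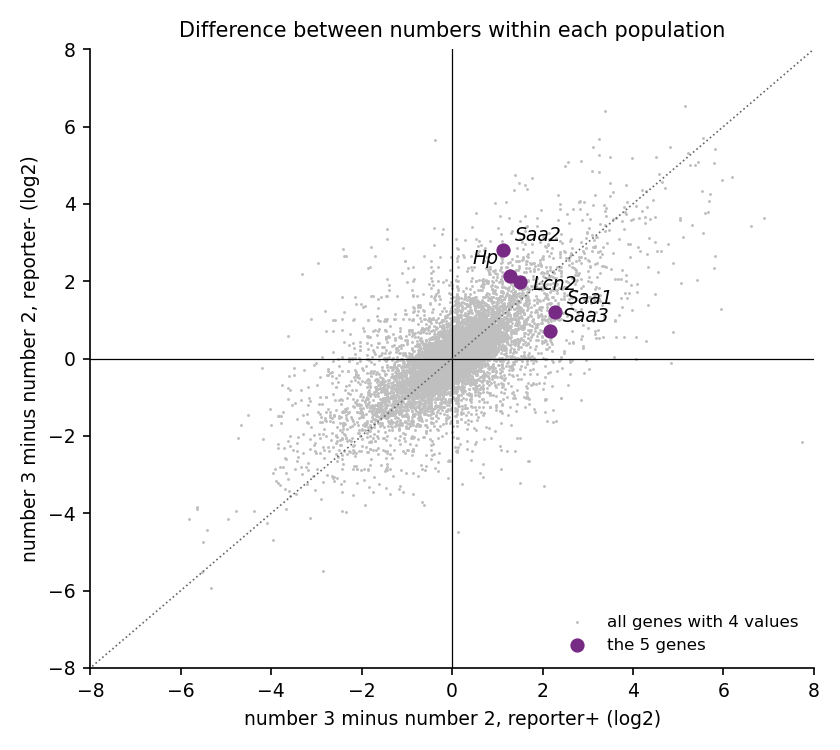
Log2 difference of the libraries numbered 3 minus those numbered 2 within PDGFRα reporter+ (x axis) and PDGFRα reporter- cells (y axis), for all genes with 4 values (gray) and the 5 genes (purple); the dotted line marks equal differences, and 2 genes lie outside the axes. All 5 genes lie above 0 on both axes, *Saa1* and *Saa3* below the dotted line and *Saa2*, *Hp* and *Lcn2* above it.

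Macrophages, neutrophils, fat cells and hepatocytes also express some of these genes, and in bulk samples fewer cells of a type and less RNA per cell cannot be told apart. Of 12 macrophage genes, 11 had 4 values, and 11 of these 11 were higher in PDGFRα reporter+ cells, 10 of them within both numbers (22.1% of all genes), with a median log2 difference of 1.00. With limma, 0 of the 11 had an adjusted p and 5 an unadjusted p under 0.05 (0.909% of all genes), and with the number as a block 2 were called (*C1qb* and *Tyrobp*, adjusted p 0.0437 each), beside 0.201% of all genes. Between numbers, 6 of the 11 were called higher in number 3, beside 11.5% of all genes. The summed level of all 12, as log2 of the summed linear values with blanks as 0, was 7.94 and 8.17 in PDGFRα reporter+ cells and 6.61 and 7.52 in PDGFRα reporter- cells. Its order over the libraries was that of *Saa1*, *Saa2* and *Saa3*, but among the 11 genes this order held for 4 only (*Lyz2*, which makes up most of the sum, *Adgre1*, *Mrc1* and *Tyrobp*). *Adgre1*, which encodes a surface marker of macrophages, had log2 values of 1.36 and 2.17, compared with −0.01 and 1.27. *Ptprc*, which encodes the CD45 that the sort removed, was listed in all libraries at −1.28 and −0.39, compared with −2.30 and −1.22. The part of macrophage RNA in these results was not tested.

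Of 8 fat cell genes, 2 had 4 values, and both were called higher in number 3, beside 11.5% of all genes. These were *Fabp4* (adjusted p 0.000106, limma) and *Lipe* (0.0151). Without the trend of the variance, neither passed (0.0766 and 0.156). The summed level of 8 adipocyte genes was 2.44 (number 2) and 5.80 (number 3) in PDGFRα reporter+ cells and 2.24 and 7.64 in PDGFRα reporter- cells, the order that *Hp* has over the libraries. *Adipoq*, which encodes the fat cell hormone adiponectin, was blank and 2.74 in PDGFRα reporter+ cells and −5.69 and 5.20 in PDGFRα reporter- cells. *Lep* was blank in every library. The part of fat cells in the difference between numbers was not tested. Neutrophil genes had log2 values of at most 1.39 (*S100a8*) or were blank. Of 12, 4 were blank in all libraries (*S100a9*, *Ltf*, *Ngp* and *Retnlg*), and 3 had 4 values. The summed level over all 12, with blanks as 0 on the linear scale, was 0.91 and 2.66 in PDGFRα reporter+ and 0.88 and 1.58 in PDGFRα reporter- cells. Of 8 hepatocyte genes, 2 were blank in all libraries, and the summed level stayed below 0 (−0.50 and −0.30, compared with −0.44 and −1.37). *Alb*, which encodes albumin, had log2 values of −4.59 and −1.25 in PDGFRα reporter+ and −6.49 and −3.61 in PDGFRα reporter- cells.

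The wider pathway was followed in 6 lists with 99 genes, 76 of them with 4 values. In PDGFRα reporter+ against PDGFRα reporter- cells, 0 of the 76 had an adjusted p under 0.05 (limma) and 1 an unadjusted p under 0.05, compared with 0 and 131 (0.909%) of all 14415 genes. With the number as a block, 29 (0.201%) of all genes and 4 of the 76 passed, namely *Mmp3* (adjusted p 0.00341), *Mmp13* (0.0101), *Steap4* (0.0343) and *Cxcl1* (0.0345), of which *Mmp13* and *Steap4* are named because they passed. With the block and no trend of the variance, 0 of all genes and 0 of the 76 passed, with an adjusted p of 0.463 for *Mmp3* and 0.487 for *Cxcl1*. A higher mean in PDGFRα reporter+ cells was found for 54 of the 76 and for 7075 of all genes. A higher value within both numbers was found for 36 of the 76 and for 22.1% of all genes, the share to set beside each list below. No list was tested as a set.

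Of the 16 other acute-phase genes with 4 values, 14 had a higher mean in PDGFRα reporter+ cells, 11 of them within both numbers. Their median log2 difference was 0.43, compared with −0.0035 over all genes. After *Saa4*, the metallothionein gene *Mt2* had the largest log2 difference on the deposited scale (0.90, SE 0.36). Its log2 values were 9.24 and 9.10, compared with 8.65 and 7.87. *Crp*, which encodes C-reactive protein, was lowest on that scale with −0.56 (SE 0.76), and its log2 values were −5.13 or lower. The *Crp* difference was −0.011 with a pseudocount of 1 and ranged from −1.08 to −0.037 with 1 library left out. The fibrinogen genes *Fga*, *Fgb* and *Fgg* were blank in both libraries numbered 2. Within number 3, their log2 values were −0.03, −1.96 and −0.43 in PDGFRα reporter+ cells, compared with −1.96, −4.58 and −4.15 in PDGFRα reporter- cells.

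Among stromal targets of NF-κB and interleukin 17, 9 of 11 genes were higher in PDGFRα reporter+ cells, all 9 within both numbers, with a median log2 difference of 0.68. The matrix protease gene *Mmp3* had log2 values of 6.73 and 10.49 in PDGFRα reporter+ and 4.82 and 8.37 in PDGFRα reporter- cells, a log2 difference of 2.01 (SE 1.74) that was nearly equal within number 2 (1.91) and number 3 (2.12). With 1 library left out, which unbalances the numbers, it ranged from 0.13 to 3.89. *Nos2*, which encodes the inducible nitric oxide synthase, differed by 1.20 (SE 0.64), with 2.03 within number 2 and 0.37 within number 3. The *Nos2* difference was 0.11 with a pseudocount of 1 and ranged from 0.75 to 1.65 with 1 library left out. *Cxcl1*, a neutrophil-attracting chemokine named here after its values were seen, was the 1 gene of the lists with an unadjusted p under 0.05. Its log2 values were 4.94 and 4.90, compared with 4.14 and 3.72, a difference of 0.99 (SE 0.19, adjusted p 1). *Ptgs2*, which encodes cyclooxygenase 2, lay lowest with −0.29 (SE 0.56).

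Of 15 cytokine and receptor genes, 10 were higher in PDGFRα reporter+ cells, 7 within both numbers, with a median of 0.18. On the deposited scale, *Osm* (1.71, SE 0.72) and *Tnf* (1.43, SE 0.92) differed most, both with log2 values below −1 in every library. *Il6ra* was lowest (−0.18, SE 0.27). With a pseudocount of 1, the difference was 0.055 for *Osm* and 0.17 for *Tnf*, below that of *Il6* (0.705). For *Tnf* the difference ranged from 0.30 to 2.55 with 1 library left out. *Il6*, named after its values were seen, had log2 values of 2.15 and 3.21 in PDGFRα reporter+ cells, compared with 2.86 and 0.60, and its difference of 0.94 (SE 0.85, adjusted p 1) was −0.72 within number 2 and 2.60 within number 3. *Il1a* and *Il1b*, which encode interleukin 1, were blank in all 4 libraries. Of 16 transcription factor and feedback genes, 9 were higher, with a median of 0.01. Within both numbers, 2 of the 16 were higher (22.1% of all genes) and 3 lower. Their largest differences were 0.22 for *Nfkbiz* (SE 0.71) and −0.35 for *Cebpa* (SE 1.08), both smaller than the spread between libraries. *Cebpa*, which encodes C/EBPα, a regulator of fat and liver genes, had log2 values of 2.40 and 2.46 in the libraries numbered 2 and 4.34 and 5.00 in those numbered 3, a log2 difference of 2.24 (adjusted p 4.6e-05, limma, and 0.0614 without the trend).

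Of 7 serum amyloid A receptor genes with 4 values, 5 were higher in PDGFRα reporter+ cells, 2 of them within both numbers (median 0.39). *Fpr1*, a formyl peptide receptor of phagocytes, differed by 1.82 (SE 1.76), with log2 values of −3.94 and −0.38 compared with −5.79 and −2.17. Its difference was 0.30 with a pseudocount of 1 and ranged from 0.011 to 3.63 with 1 library left out. *Cd36* differed by 0.58 (SE 0.86) and *P2rx7* by −0.30 (SE 0.38). Of 11 genes for lipocalin and haptoglobin receptors and for iron and heme handling, 7 were higher, 5 within both numbers (median 0.01). The iron transporter gene *Slc11a1* (0.82, SE 0.43) and the transferrin receptor gene *Tfrc* (0.59, SE 0.52) differed most, and the ferritin gene *Ftl1* was lowest (−0.18, SE 0.45). With a pseudocount of 1, *Slc11a1* (0.44) lay below *Tfrc* (0.50). With 1 library left out, *Slc11a1* ranged from 0.33 to 1.31. *Cd163*, which encodes the macrophage receptor for haptoglobin bound to hemoglobin, had a value in 1 library only (−7.59, PDGFRα reporter+ number 3).

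**Figure D5:**
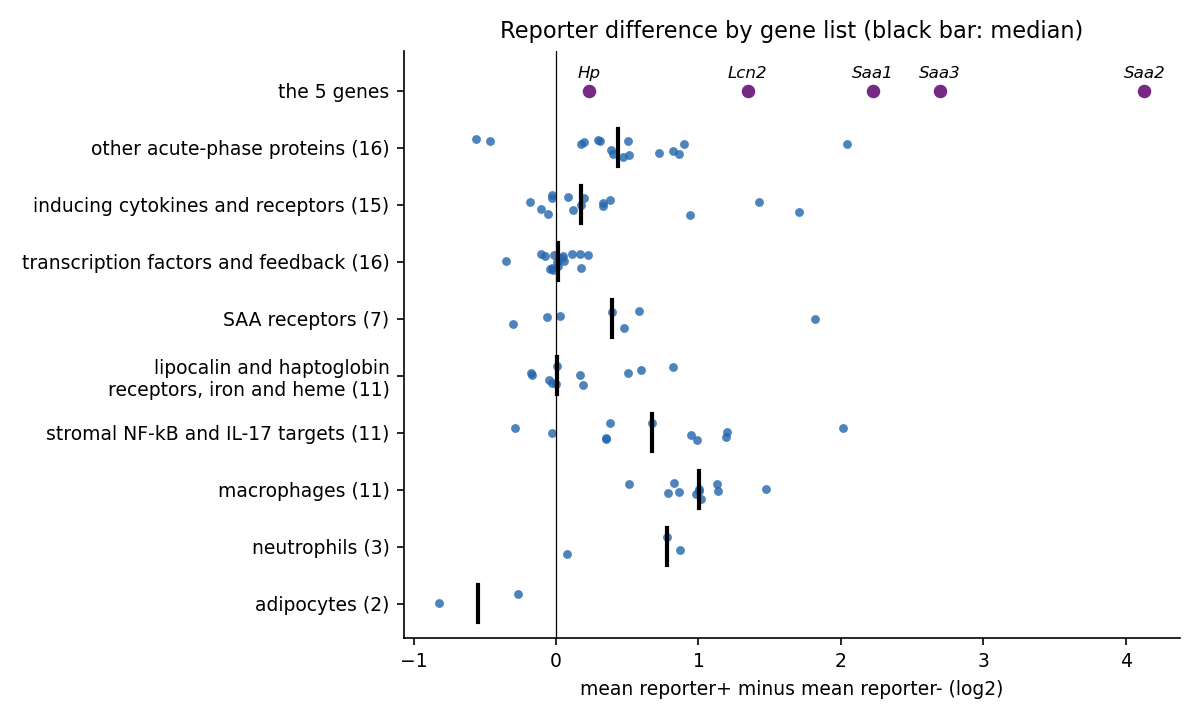
Log2 difference of the population means (PDGFRα reporter+ minus PDGFRα reporter-, x axis) for the 5 genes and for the genes of 9 lists with 4 values (number in brackets), with 1 point per gene and a black bar at the median of each list; vertical scatter within a list carries no value. Of the 9 lists drawn, which leave out the hepatocyte, stromal and endothelial genes, medians run from −0.54 for adipocyte to 1.00 for macrophage genes, and *Saa1*, *Saa3* and *Saa2* lie to the right of all of the list points.

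Between the libraries numbered 3 and 2, 24 of the 76 list genes were called higher and 10 lower (limma, adjusted p under 0.05), beside 11.5% and 9.79% of all genes. Other acute-phase genes gave 9 higher and 1 lower of 16, and iron and heme genes 4 higher and 0 lower of 11. Transcription factor and feedback genes gave 1 higher and 5 lower of 16. Without the trend of the variance, 0 of the 76 were called.

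Genes with a profile like that of *Saa3*, *Lcn2* or *Hp* were sought among 10221 other genes whose log2 values averaged 0 or more. Likeness was the Euclidean distance over the 4 libraries between log2 values centered on the mean of each gene, given as a description. The nearest to *Saa3* were *Igfbp5* (1.15), *Ms4a6d* (1.53), *Pirb* (1.56), *Igf1* (1.64) and *Dcn* (1.66). The nearest to *Lcn2* were closer, namely *Pirb* (0.35), *Enpep* (0.38), *Mpeg1* (0.40), *Mme* (0.45) and *Lilr4b* (0.46). Those nearest to *Hp* were *C1s1* (0.11), *Srpx* (0.12), *Exoc3l4* (0.19), *Gm13305* (0.19) and *Gbp9* (0.21). Among the 5 genes themselves, *Saa1* and *Saa3* were most alike (0.58), followed by *Lcn2* and *Hp* (1.13) and *Saa1* and *Lcn2* (1.18), and *Saa2* and *Hp* were least alike (3.93). *Saa1* and *Saa3* share 9 stretches of 50 bases, and the part of shared reads in their likeness was not tested.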

How the data were processed

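Per the labels and the study's methods, stranded paired-end Illumina libraries of total RNA were analyzed by the authors with Partek, and the processing notes name bcl2fastq 2.17.1.14, Partek 7.0 and GRCm38.p6. The authors deposited log2 values after quantile normalization, blank where no signal was found. The aligner, the counting, the annotation and the linear unit are not given in the sources used here, so that depth is unknown.

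Column headings name a population with the number 2 or 3, and the labels name replicates 1 and 2. Libraries were thus assigned to their population only. Separate cultures per library are not stated, so that p-values measure only the spread between these libraries. The members and lists were chosen with earlier results of these data known.

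Over the 14415 genes with 4 values, limma 3.58.1 in R 4.3.3 was used (lmFit, eBayes with a variance trend, two-sided, Benjamini-Hochberg), without a block for populations, and with population as a term for numbers. With 2 libraries against 2, an exact two-sided permutation p cannot be below 0.333, so that none was used. Most named list genes are those with the largest differences in either direction. Others are marked or, as with *Fga*, *Fgb*, *Fgg*, *Il1a*, *Il1b* and *Cd163*, are blank in some or all libraries. Likeness, promoters (RefSeq) and shared stretches (GENCODE M21) were computed in Python 3.11.15 with pandas 2.3.3 and Biopython 1.88, and plots in matplotlib 3.10.9. Alternatives were centering, pseudocounts of 0.1 and 1, no trend, a filter on low values, filled blanks, the number as a block, no population term and leaving out each library.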

Additional observations from a re-analysis of the deposited data

Results flagged for a closer look

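*Hp* was singled out because its difference between populations had opposite signs in the libraries numbered 2 and 3. PDGFRα reporter+ minus PDGFRα reporter- gave 0.66 on the log2 scale within number 2 and −0.20 within number 3. Each value rests on 1 library per population, and the difference between the numbers was not tested. Over the 6 lists, 36 of 76 genes were higher and 7 lower within both numbers. Among the list genes named in the text, those with opposite signs within number 2 and number 3, equally untested, were *Il6* (−0.72 and 2.60), *Ptgs2* (−1.16 and 0.59), *Crp* (−1.14 and 0.018), *Cd36* (1.32 and −0.15), *Ftl1* (0.14 and −0.49), *Nfkbia* (0.43 and −0.082) and *Nfkbiz* (−0.045 and 0.49).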

How the results depend on the processing

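With 2 libraries per population and unknown depth, values below 0 on the log2 scale are the least certain. The log2 differences of *Saa1*, *Saa2*, *Saa3* and *Lcn2* between populations stayed positive under every alternative run. For *Saa1*, *Saa2* and *Saa3*, whose groups did not overlap, this sign was fixed in advance under the pseudocounts, the block and leaving out a library. For *Lcn2* it was fixed under the pseudocounts and the block. Nothing is therefore read from these signs. A pseudocount of 1 lowered the differences to 0.69 for *Saa1* and 1.07 for *Saa2*, as their values are low. With each library left out in turn they ranged from 1.09 to 3.36 for *Saa1*, 2.72 to 5.54 for *Saa2*, 1.61 to 3.78 for *Saa3*, 0.36 to 2.34 for *Lcn2* and −0.83 to 1.29 for *Hp*. *Hp* was negative when the PDGFRα reporter+ library numbered 3 (−0.41) or the PDGFRα reporter- library numbered 2 (−0.83) was left out. Leaving out a library unbalances the numbers, so that these values also carry the difference between numbers.

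For number 3 minus number 2, the differences from 1 population, which is what leaving out a library gives, were 1.19 to 2.27 for *Saa1*, 1.12 to 2.82 for *Saa2*, 0.72 to 2.17 for *Saa3*, 1.50 to 1.98 for *Lcn2* and 1.27 to 2.13 for *Hp*, with no test possible. No gene was called without the trend (adjusted p 0.106 for *Saa1* at 1.73, 0.142 for *Saa2* at 1.97, 0.172 for *Saa3* at 1.44, 0.0631 for *Lcn2* at 1.74 and 0.0888 for *Hp* at 1.70). Without the population term only *Hp* of the 5 passed, beside *Saa1* (0.299), *Saa2* (0.502), *Saa3* (0.454) and *Lcn2* (0.115). With a pseudocount of 1, *Saa1* (0.57, adjusted p 0.132), *Saa2* (0.42, adjusted p 0.0820) and *Saa3* (1.43, adjusted p 0.0694) no longer passed, and the count of called genes fell from 3065 to 1825. Over the alternatives with a test the adjusted p ranged from 0.0117 to 0.299 for *Saa1*, 0.0134 to 0.502 for *Saa2*, 0.00511 to 0.454 for *Saa3*, 5.22e-05 to 0.115 for *Lcn2* and 0.00032 to 0.0888 for *Hp*. The cause was not tested. *Saa1* and *Saa2* have means below 0 and give no value under the filter on low values.

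Whether the numbers pair the libraries is not stated; the deviations of libraries with the same number had a correlation of 0.681 across genes. With the replicate block, 29 genes (0.201%) were called between populations in place of 0, 22 of them higher, and 4 list genes in place of 0. With the block and no trend it was 0 of both, beside 941 genes with an unadjusted p under 0.05. Leaving out each library gave 0 to 0 calls. Among the named list genes for which it was run, and not over all 76, leaving out 1 library turned the sign for *Cebpa* (−1.63 to 0.92), *Nfkbiz* (−0.64 to 1.09), *Nfkbia* (−0.10 to 0.45), *Cd36* (−0.57 to 1.74), *P2rx7* (−0.75 to 0.15), *Ftl1* (−0.56 to 0.20), *Tfrc* (−0.11 to 1.29), *Il6* (−0.19 to 2.07) and *Ptgs2* (−1.07 to 0.50).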
